A study of Homo sapiens with 14 samples.

Results

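Cholesterol and fatty acids are made by enzymes whose genes share a pair of transcription factors, and 30 genes of this pathway were followed across cell lines that carry an RNA-editing enzyme. The members were 8 genes of the mevalonate and isoprenoid steps, 11 of the squalene and sterol steps, 5 for the transcription factors and their anchors, 1 sterol carrier and 5 of the fatty acid steps. They were chosen by name from a pathway list, with earlier results of these data known. The transcript with the highest mean level stood for each gene. All 30 were among the 16421 genes tested, of 22419 genes with a name.

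The factors are SREBP1 and SREBP2, encoded by SREBF1 and SREBF2, which are made as membrane proteins of the endoplasmic reticulum. SCAP escorts them to the Golgi, where proteases free the part that enters the nucleus, and the INSIG proteins hold SCAP back when sterols are plentiful. INSIG1 is itself a target of the factors, so that its mRNA is widely used as a reading of pathway activity, and the targets include most genes of both synthetic routes.

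The cells were 293 Flip-In T-REx, a line from human embryonic kidney with 1 chosen site for a transgene. RNA sequencing of polyadenylated RNA gave 14 libraries in 7 groups of 2. The study was designed to look for unintended editing, and expression was compared here between its groups. Each transgene fuses the SNAP tag, which bonds covalently to a suitably modified guide RNA, to the deaminase domain of ADAR (SNAP-ADAR1) or of ADARB1 (SNAP-ADAR2), enzymes that turn adenosine into inosine in RNA. SA1Q+gRNA cells held SNAP-ADAR1Q, in which a glutamine replaces a glutamate of the deaminase domain, and were labelled as having a guide. SA1Q cells held the same transgene and had no guide in their label. SA1+gRNA cells held SNAP-ADAR1 without that change and had a guide. SA2Q+gRNA, SA2Q and SA2+gRNA were the matching groups for SNAP-ADAR2Q and SNAP-ADAR2. The ctrl cells held an empty vector and had no guide in their label. Each group was labelled as 1 line, so a difference between lines could not be told apart from an effect of the transgene. The labels do not say what the guide targets or whether the transgene was induced.

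The libraries held between 43.0 M and 130.1 M fragments each, and the least abundant member had at least 324 fragments in every library. ADAR reached 1090 to 1600 CPM in the 3 groups with SNAP-ADAR1 forms, against 307 and 340 CPM in ctrl, and ADARB1 reached 940 to 1160 CPM in the 3 groups with SNAP-ADAR2 forms, against 29.3 and 37.2 CPM in ctrl. CPM stands throughout for counts scaled to library size (the usual CPM) after correction between libraries by the TMM method. Of the markers of the line, KRT8 ran from 231 to 349 CPM and VIM from 958 to 1290 CPM, while NEFM was at 0.815 to 1.78 CPM. Of the blood markers, LCP1 ran from 110 to 163 CPM and CD68 from 10.7 to 21.8 CPM, and PTPRC stayed at or under 0.406 CPM. Of the fibroblast markers, COL1A1 ran from 4.93 to 8.43 CPM and DCN stayed at or under 0.0797 CPM, and ALB of hepatocytes was at or under 0.437 CPM. A pair of libraries stood apart on the first principal component, which held 24.7% of the variance. SA1Q+gRNA replicate 1 lay at -43.9 and ctrl replicate 1 at -39.6, against 0.3 to 13.7 in the other 12 libraries. The ribosomal precursor RNA45SN5 was at 12000 CPM in SA1Q+gRNA replicate 1, the highest of the 14, and at 2370 to 8550 CPM in the others, with 4110 CPM in ctrl replicate 1. All counts of SA1+gRNA replicate 2 were even, against 47.7% to 48.7% even counts elsewhere, and halving them changed no call among the members. The design text speaks of 2 independent experiments, and p-values measure only the spread between such pairs of libraries.

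The letters upstream of the members were read because several members moved in the same direction. Promoters of 26 of the 30 members were matched in the RefSeq table of build GRCh38.p14, each from 250 bases before to 50 bases after the gene's start. Matching was by gene symbol, and it was not checked that each window lies at the start of the transcript measured. ACAT2, FDFT1, SQLE and FASN were not matched. Of these windows, 17 held a CCAAT box (CCAAT or ATTGG, searched on both strands), against 34.6% of all 35116 promoters in the table. CCAAT is the motif of NF-Y, a factor known to act beside SREBP at many sterol-responsive promoters. The core of the sterol regulatory element, TCACNCCAC on either strand, was searched by exact match. It was found in 1 of the 26 member promoters, that of SREBF2, against 1.13% of all promoters. A site that departs from these letters or lies outside the window was not counted. The E-box CACGTG, which reads alike on both strands, was in 4 of the 26, against 7.26%. The GC box (GGGCGG or CCGCCC) was in 24, against 45.0%. The promoters of the table were not limited to the genes tested, so these shares compare unlike sets of genes. No match of one motif overlapped a match of another in these windows. The 250 bases before the start are shown for the 3 members that were lower in the comparison of SA1Q+gRNA with SA1+gRNA, and for SREBF2 as the member with the sterol element, on the gene's strand with CCAAT boxes and the sterol element in capitals. The INSIG1 stretch is chr7:155297628-155297877 on the plus strand, that of MSMO1 chr4:165327419-165327668 plus, that of IDI1 chr10:1056705-1056954 minus and that of SREBF2 chr22:41832855-41833104 plus.
INSIG1: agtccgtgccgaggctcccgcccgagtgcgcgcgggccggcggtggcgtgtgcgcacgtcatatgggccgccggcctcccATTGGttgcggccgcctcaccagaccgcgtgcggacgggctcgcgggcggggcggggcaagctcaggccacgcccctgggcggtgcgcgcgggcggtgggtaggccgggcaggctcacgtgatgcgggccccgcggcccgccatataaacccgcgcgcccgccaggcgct
MSMO1: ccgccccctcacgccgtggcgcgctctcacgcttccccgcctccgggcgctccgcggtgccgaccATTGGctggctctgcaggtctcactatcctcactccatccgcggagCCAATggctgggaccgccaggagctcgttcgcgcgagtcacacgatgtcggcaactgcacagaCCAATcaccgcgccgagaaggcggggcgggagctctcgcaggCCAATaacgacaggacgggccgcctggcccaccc
IDI1: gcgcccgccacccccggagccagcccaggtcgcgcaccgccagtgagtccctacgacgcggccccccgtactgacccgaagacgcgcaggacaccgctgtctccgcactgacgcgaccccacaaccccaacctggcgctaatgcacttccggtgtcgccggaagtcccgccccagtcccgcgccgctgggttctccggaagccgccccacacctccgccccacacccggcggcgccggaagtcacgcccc
SREBF2: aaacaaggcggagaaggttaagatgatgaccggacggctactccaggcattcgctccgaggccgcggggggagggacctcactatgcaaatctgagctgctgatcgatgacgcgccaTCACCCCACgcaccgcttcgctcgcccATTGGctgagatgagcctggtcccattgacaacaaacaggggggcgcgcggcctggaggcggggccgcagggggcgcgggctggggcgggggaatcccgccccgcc
INSIG1 held 1 CCAAT box, 170 bases before the start, and 1 E-box. MSMO1 held 4 CCAAT boxes within the window. The IDI1 window held neither a CCAAT box nor an exact match of the sterol element. It may not lie at the start of the IDI1 transcript measured. SREBF2 held both, with the sterol element at base 133 and the CCAAT box at base 106 before the start.

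In per-length units (FPKM, fragments scaled to transcript length and library total), the members covered a wide range of levels. ACLY, which makes cytosolic acetyl-CoA from citrate, had the highest median over the 14 libraries, 138 FPKM. FDPS, the farnesyl diphosphate synthase, followed at 122 FPKM, ACAT2, the cytosolic thiolase at the head of the mevalonate route, at 113 FPKM, and SCD, the stearoyl-CoA desaturase, at 106 FPKM. INSIG2 had the lowest median, 3.48 FPKM, against 53.6 FPKM for its paralog INSIG1. ELOVL6, an elongase of saturated fatty acids, was next lowest at 6.55 FPKM. SREBF2 was more abundant than SREBF1, with medians of 33.5 and 10.2 FPKM. FDPS and HSD17B7 have near-identical copies in the genome, so their counts are uncertain.

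**Figure D1:**
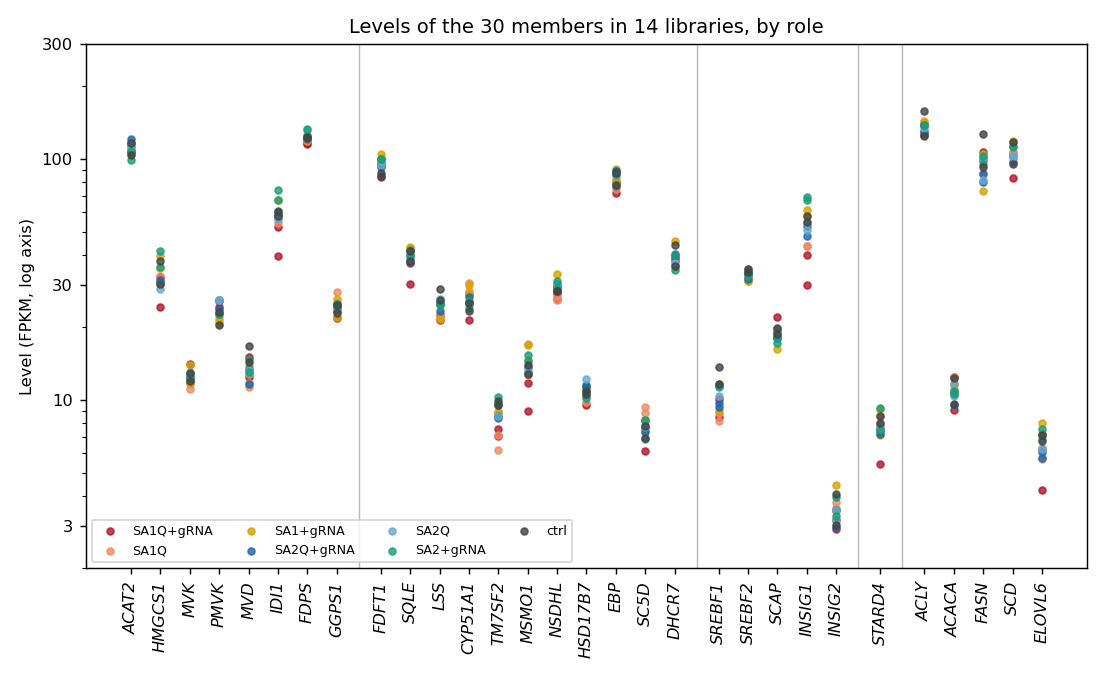
Level of each member in FPKM on a log axis, 1 point per library coloured by group, in the order of the mevalonate, sterol, regulator, carrier and fatty acid genes separated by grey lines. INSIG2 lies lowest, with a median of 3.48 FPKM, and ACLY highest, with a median of 138 FPKM.

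Most members varied little between libraries. The ratio of the highest to the lowest level was 1.12 for SREBF2 and 1.16 for FDPS. FDPS had 195 and 187 CPM in SA1Q+gRNA, 190 and 197 in SA1Q, 195 and 207 in SA1+gRNA, 199 and 198 in SA2Q+gRNA, 198 and 214 in SA2Q, 216 and 204 in SA2+gRNA, and 203 and 195 CPM in ctrl. FDPS levels thus overlapped across most groups. FDFT1, the squalene synthase, had 221 and 233 CPM in SA1Q+gRNA, 235 and 241 in SA1Q, 253 and 269 in SA1+gRNA, 234 and 240 in SA2Q+gRNA, 236 and 246 in SA2Q, 251 and 255 in SA2+gRNA, and 218 and 216 CPM in ctrl. Both ctrl values of FDFT1 lay below those of every other library. ACLY had 606 and 627 CPM in SA1Q+gRNA, 633 and 664 in SA1Q, 579 and 667 in SA1+gRNA, 590 and 606 in SA2Q+gRNA, 640 and 615 in SA2Q, 640 and 644 in SA2+gRNA, and 589 and 717 CPM in ctrl. The ctrl pair of ACLY spanned every other group but the lowest library of SA1+gRNA. STARD4, a carrier that moves sterol between membranes, had 13.6 and 18.1 CPM in SA1Q+gRNA, 20.1 and 19.1 in SA1Q, 22 and 17.4 in SA1+gRNA, 17.9 and 17.4 in SA2Q+gRNA, 18.3 and 19.0 in SA2Q, 22.3 and 18.2 in SA2+gRNA, and 19.6 and 20.4 CPM in ctrl. SA1Q+gRNA replicate 1 was the lowest of the 14 libraries for STARD4.

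INSIG1 varied most of the 30, with a ratio of 2.23 between its highest and lowest library, followed by ELOVL6 at 1.82, IDI1 at 1.80 and MSMO1 at 1.79. INSIG1 (NM_005542, on hg19 chr7:155089486-155101945, plus strand) had 99.9 and 125 CPM in SA1Q+gRNA, 136 and 139 in SA1Q, 195 and 187 in SA1+gRNA, 153 and 169 in SA2Q+gRNA, 161 and 173 in SA2Q, 223 and 218 in SA2+gRNA, and 179 and 182 CPM in ctrl. The order of the group means was SA1Q+gRNA lowest, then SA1Q, SA2Q+gRNA, SA2Q, ctrl, SA1+gRNA and SA2+gRNA, and only the neighbours SA2Q+gRNA and SA2Q overlapped. Of the neighbours in this order, SA1Q+gRNA with SA1Q, SA2Q+gRNA with SA2Q, SA2Q with ctrl, SA1+gRNA with ctrl and SA1+gRNA with SA2+gRNA were compared, and none of these pairs passed the test (adjusted p = 0.39, 1.0, 0.79, 0.76 and 0.97). Over all 7 groups the gene differed by edgeR's quasi-likelihood test (adjusted p = 0.00089).

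IDI1, the isomerase that makes the activated isoprene units interchangeable, had 93.6 and 116 CPM in SA1Q+gRNA, 129 and 122 in SA1Q, 153 and 134 in SA1+gRNA, 132 and 137 in SA2Q+gRNA, 127 in both libraries of SA2Q, 169 and 155 in SA2+gRNA, and 133 and 136 CPM in ctrl. Both SA1Q+gRNA libraries of IDI1 were below all others and both SA2+gRNA libraries above them. TM7SF2, a sterol reductase of the late pathway, had 13.4 and 11.9 CPM in SA1Q+gRNA, 11.9 and 10.5 in SA1Q, 15.1 and 15.4 in SA1+gRNA, 14.4 and 14.7 in SA2Q+gRNA, 16.4 and 14.6 in SA2Q, 17.5 and 16.3 in SA2+gRNA, and 17.1 and 15.9 CPM in ctrl. The 4 libraries of the SA1Q line were the lowest for TM7SF2. IDI1 and TM7SF2 differed over the 7 groups (adjusted p = 0.045 and 0.047, edgeR), so that 3 of the 30 members did, against 1.54% of all genes tested. The transcript of IDI1 overlaps the antisense IDI2-AS1 and that of TM7SF2 overlaps VPS51 on the same strand, so their counts are uncertain.

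**Figure D2:**
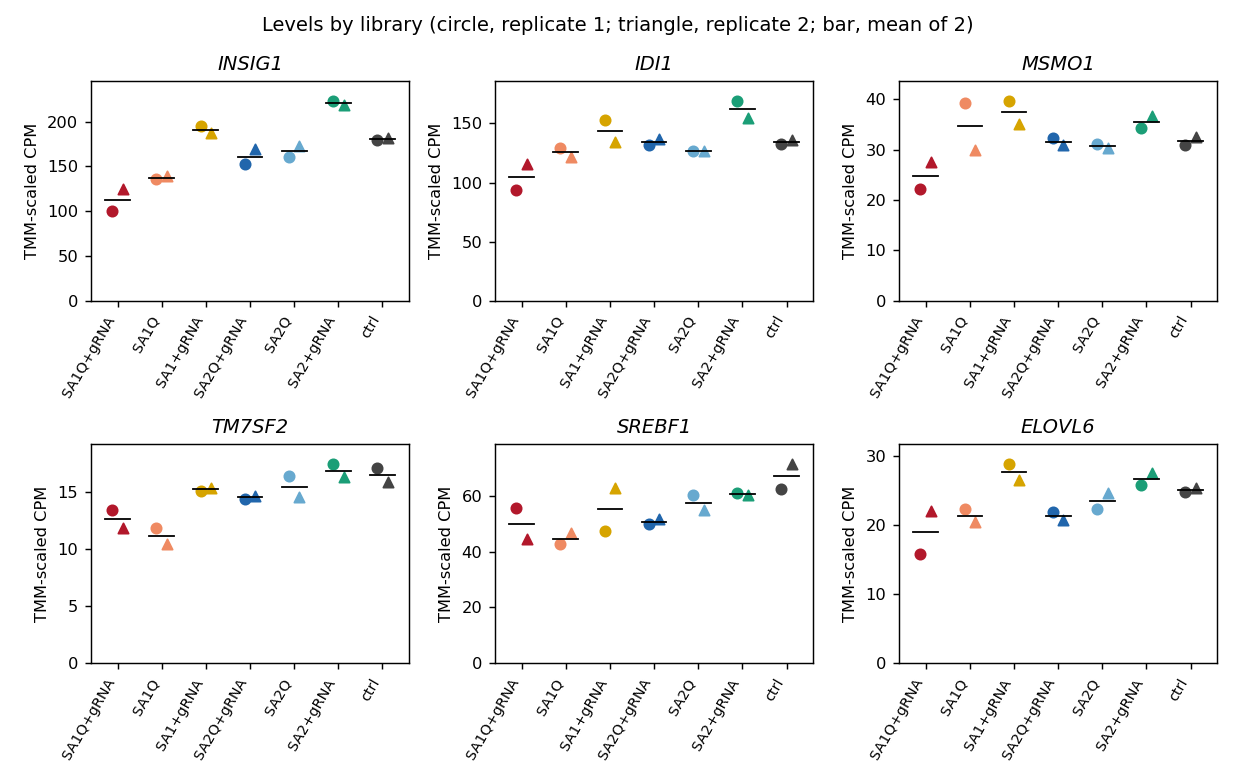
Level in TMM-scaled CPM of 6 members in each library, with circles for replicate 1, triangles for replicate 2 and a bar at the mean of each group, on axes that start at 0. INSIG1, IDI1, MSMO1 and ELOVL6 have their lowest value in SA1Q+gRNA replicate 1, TM7SF2 and SREBF1 in an SA1Q library.

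SA1Q cells were compared with ctrl cells to see whether the pathway differed where the Q form of the SNAP-ADAR1 line had no guide. INSIG1, SREBF1 and TM7SF2 were lower in SA1Q, which makes 3 of 30 members, and no member was higher. Among all genes tested, 2.86% were called, 1.78% as lower and 1.08% as higher. SREBF1 had 42.7 and 46.6 CPM in SA1Q, against 62.4 and 71.4 CPM in ctrl. These groups did not overlap, as for 22.9% of all genes in the lower direction. Its log2 change was -0.58 (SE 0.13, adjusted p = 0.029, edgeR). Levels of SREBF1 in SA2Q (60.2 and 54.8 CPM), SA2+gRNA (60.8 and 60.2), SA2Q+gRNA (49.7 and 51.6) and SA1Q+gRNA (55.6 and 44.4) also lay below both ctrl values. SA1+gRNA had 47.4 and 62.7 CPM. TM7SF2 averaged 11.2 ± 0.98 CPM in SA1Q and 16.5 ± 0.85 CPM in ctrl (SD, n = 2 each), a log2 change of -0.56 (SE 0.11, adjusted p = 0.017, edgeR). INSIG1 averaged 137 ± 2.2 CPM in SA1Q and 180 ± 2.1 CPM in ctrl, a log2 change of -0.39 (SE 0.10, adjusted p = 0.042, edgeR). The 3 annotated transcripts of INSIG1 share most fragments and had log2 differences of -0.37, -0.32 and -0.36.

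By role, 2 of the 5 regulators and 1 of the 11 sterol genes were lower in SA1Q, and none of the 8 mevalonate or 5 fatty acid genes passed the test. MVD, the decarboxylase of the mevalonate route, came nearest among the other members, with 22.1 and 21.5 CPM in SA1Q, against 27.8 and 31.4 CPM in ctrl (log2 -0.44, adjusted p = 0.065). The ctrl mean of MVD, 29.6 CPM, was the highest of the 7 groups. LSS, the lanosterol synthase, had 100 and 106 CPM in SA1Q, against 124 and 132 CPM in ctrl (log2 -0.31, adjusted p = 0.076). Both ctrl values of LSS lay above those of every other library. CYP51A1 and SC5D of the same sterol branch had positive differences, 0.25 and 0.29, that did not pass (adjusted p = 0.14 and 0.16). The median log2 difference was -0.05 over the 30 members and 0.00 over all genes tested, with 21 members below 0. At an unadjusted p under 0.05 there were 7 members, or 23.3%, close to the 21.2% of all genes.

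These calls rested on few libraries, and a fit that leaves 1 library in a group takes its spread from the other groups. Without either SA1Q library no member was called, against 0.226% of all genes. TM7SF2 alone was called without ctrl replicate 2 and SREBF1 alone without ctrl replicate 1, against 5.15% and 1.90% of all genes. Without either library of SA1Q+gRNA, which is no arm of this comparison but shares its estimate of spread, 5 members were called, against 7.19% (replicate 1 left out) and 7.18% (replicate 2) of all genes. Without SA2Q replicate 1 or SA2Q+gRNA replicate 2 only TM7SF2 was called, against 1.18% and 1.26%. Without both libraries that stood apart, 5 were called, MVD and LSS joining the 3, against 7.84% of all genes. VPS51, whose transcript overlaps that of TM7SF2 and is more abundant per length (median 25.4 against 8.78 FPKM), had a log2 difference of -0.58 (adjusted p = 0.05). SREBF1 lies opposite RAI1, whose log2 difference was -0.21 (adjusted p = 0.36). Whether these neighbours share fragments with the members was not tested. With a correction for transcript length and GC content, TM7SF2 was no longer called (log2 -0.34, adjusted p = 0.07, edgeR), while SREBF1 and INSIG1 were (log2 -0.42 and -0.48). That fit also called HMGCS1 of the mevalonate genes (log2 -0.28, adjusted p = 0.014) and ELOVL6 of the fatty acid genes (log2 -0.33, adjusted p = 0.042), so that 4 members were lower, against 6.01% of all genes called.

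Genes listed as markers of other cell types also moved in SA1Q against ctrl. In the list for fibroblasts, 1 of 7 genes was lower, COL1A1 (log2 -0.64), and the summed level was 6.26 to 6.63 CPM in SA1Q, against 10.3 to 11.8 CPM in ctrl. In the list for blood cells, 1 of 5 was lower, CD68 (log2 -0.57), with a summed level of 130 to 142 CPM in SA1Q, against 160 to 161 CPM in ctrl, while CD3E and HBB were at or near 0. In the list for the line itself, 1 of 6 was lower, KRT8 (log2 -0.48), and 1 higher, INA (log2 0.47), with a summed level of 1540 to 1630 CPM in SA1Q, against 1630 CPM in both ctrl libraries. The 3 hepatocyte genes summed to at most 0.401 CPM in SA1Q, against 0.31 CPM in ctrl. The part of these shifts in the result was not tested. Every group came from the same parent line, and no other cell type was shown to be present. In the blood list LCP1 ran from 110 to 163 CPM and CD68 from 10.7 to 21.8 CPM over all libraries. PTPRC, CD3E and HBB stayed at or under 0.406, 0.0257 and 0.0625 CPM. In the fibroblast list COL1A1 ran from 4.93 to 8.43 CPM, and DCN stayed at or under 0.0797 CPM. Whether fewer cells of the line expressed a listed gene, or each held less of its RNA, was not tested.

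SA1Q+gRNA cells, which add a guide to the same line, were also compared with ctrl. INSIG1 was lower and was the 1 member of 30 called, against 1.02% of all genes tested and 0.609% called lower. It averaged 112 ± 18 CPM in SA1Q+gRNA and 180 ± 2.1 CPM in ctrl (SD, n = 2 each), a log2 change of -0.68 (SE 0.10, 95% interval -0.88 to -0.48, adjusted p = 0.0029, edgeR). The groups did not overlap, as for 16.1% of all genes in the lower direction. All 3 INSIG1 transcripts had differences of -0.69 to -0.68. IDI1, TM7SF2, SREBF1 and LSS had differences of -0.36, -0.39, -0.42 and -0.30 that did not pass (adjusted p = 0.097, 0.10, 0.13 and 0.14). ELOVL6 had 15.9 and 22.1 CPM in SA1Q+gRNA, against 24.8 and 25.4 CPM in ctrl (log2 -0.39, adjusted p = 0.16). In all, 25 of the 30 members lay below 0, with a median of -0.08, against 0.00 over all genes. At an unadjusted p under 0.05 there were 11 members, or 36.7%, against 13.9% of all genes. The members above 0 included PMVK, the phosphomevalonate kinase, and SCAP, at 0.22 and 0.12.

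Each group of this comparison holds a library that stood apart. The difference of replicate 1 from replicate 2 in SA1Q+gRNA was larger for transcripts of higher GC content across the 30 members (Spearman's rho 0.85), which ranged from 34.2% to 65.6%. In ctrl the same difference had a rho of 0.06 with GC content and -0.69 with transcript size. These values are given as descriptions, since the members of 1 library are not independent. INSIG1 has a GC content of 42.9%, and its log2 difference was -0.84 between the replicates numbered 1, the libraries that stood apart, and -0.54 between those numbered 2. IDI1, with a GC content of 39.8%, had -0.51 and -0.23, and SREBF1, with 64.7%, had -0.17 and -0.69. Leaving out both libraries that stood apart keeps 1 library in each group. The log2 difference was then -0.54 for INSIG1, -0.42 for LSS and -0.69 for SREBF1. Without SA1Q+gRNA replicate 1 alone, the difference was -0.53 for INSIG1 and -0.59 for SREBF1. Without replicate 2 it was -0.86 for INSIG1, -0.53 for IDI1 and -0.67 for ELOVL6. With the correction for length and GC content, 8 members were called, all lower, and INSIG1 kept its value of -0.68, while the share of all genes called was then 6.10%. INA, a marker of the line, was higher here as well (log2 0.45). The summed level of the blood list was 122 to 132 CPM in SA1Q+gRNA, against 160 to 161 CPM in ctrl, with none of its genes called. RNA45SN5 had 12000 and 2710 CPM in SA1Q+gRNA, against 4110 and 6330 CPM in ctrl. The part of either in the result was not tested.

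**Figure D3:**
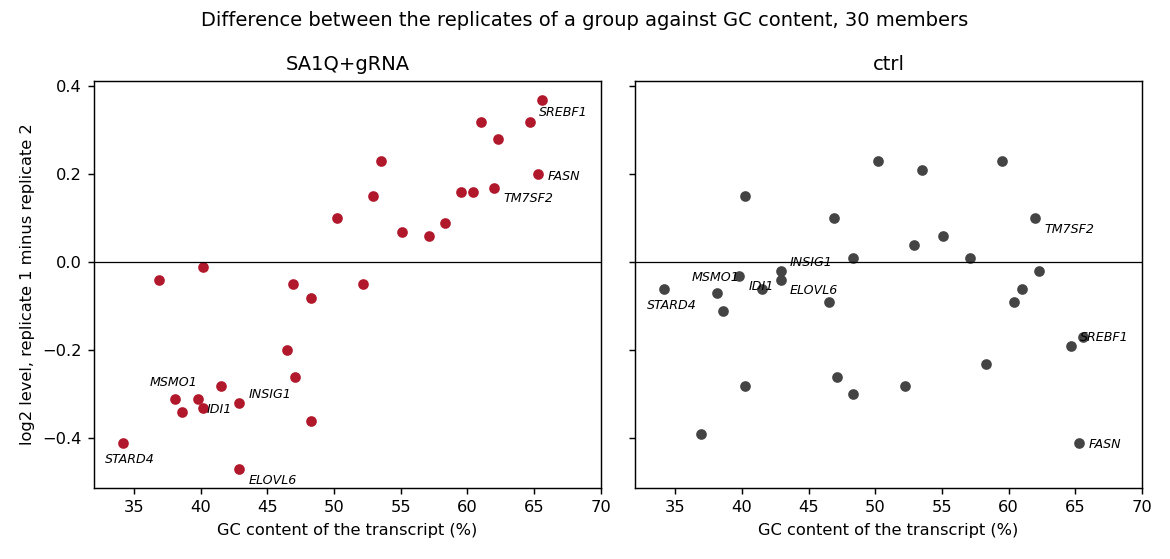
Log2 level of replicate 1 minus replicate 2 for each of the 30 members against the GC content of its transcript in percent, in SA1Q+gRNA on the left and in ctrl on the right. In SA1Q+gRNA the points climb with GC content (rho 0.85), and in ctrl they do not (rho 0.06).

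With a guide in both, SA1Q+gRNA cells were compared with SA1+gRNA cells, whose transgenes differ by the glutamine change. They are also separate lines, so the glutamine change and the line cannot be told apart. ADAR and ADARB1 together were at 1160 to 1350 CPM in SA1Q+gRNA, against 1460 to 1630 CPM in SA1+gRNA. INSIG1, MSMO1 and IDI1 were lower in SA1Q+gRNA and no member was higher, so that 3 of 30 were called, against 0.962% of all genes tested and 0.505% called lower. INSIG1 averaged 112 ± 18 CPM in SA1Q+gRNA and 191 ± 5.5 CPM in SA1+gRNA (SD, n = 2 each), a log2 change of -0.76 (SE 0.10, 95% interval -0.97 to -0.56, adjusted p = 0.00094, edgeR). MSMO1, a methylsterol monooxygenase that acts after CYP51A1 in the sterol branch, had 22.2 and 27.5 CPM in SA1Q+gRNA, against 39.7 and 35.2 CPM in SA1+gRNA. Its groups did not overlap, as for 21.2% of all genes in the lower direction. Its log2 change was -0.59 (SE 0.13, adjusted p = 0.039, edgeR). IDI1 had a log2 change of -0.45 (SE 0.10, adjusted p = 0.040, edgeR), again without overlap. Its antisense neighbour IDI2-AS1 had the same log2 difference, -0.45 (adjusted p = 0.072).

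All 11 genes of the squalene and sterol steps lay below 0, with a median of -0.20 and a range of -0.59 to -0.07, although 1 of them passed. SQLE, the squalene epoxidase and a rate-limiting step, had 101 and 116 CPM in SA1Q+gRNA, against 136 and 137 CPM in SA1+gRNA (log2 -0.34, adjusted p = 0.072). HMGCS1, the synthase that commits acetoacetyl-CoA to the mevalonate route, had 146 and 184 CPM in SA1Q+gRNA, against 227 and 208 CPM in SA1+gRNA (log2 -0.40, adjusted p = 0.10). ELOVL6 had a log2 difference of -0.54 and SCD of -0.31 (adjusted p = 0.055 and 0.11). PMVK, SCAP and FASN, the fatty acid synthase, had differences of 0.27, 0.26 and 0.23, with PMVK at an adjusted p of 0.18. Over the 30 members the median was -0.15, against 0.00 over all genes, with 24 below 0, and 15 of the 30 had an unadjusted p under 0.05, against 17.4% of all genes.

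**Figure D4:**
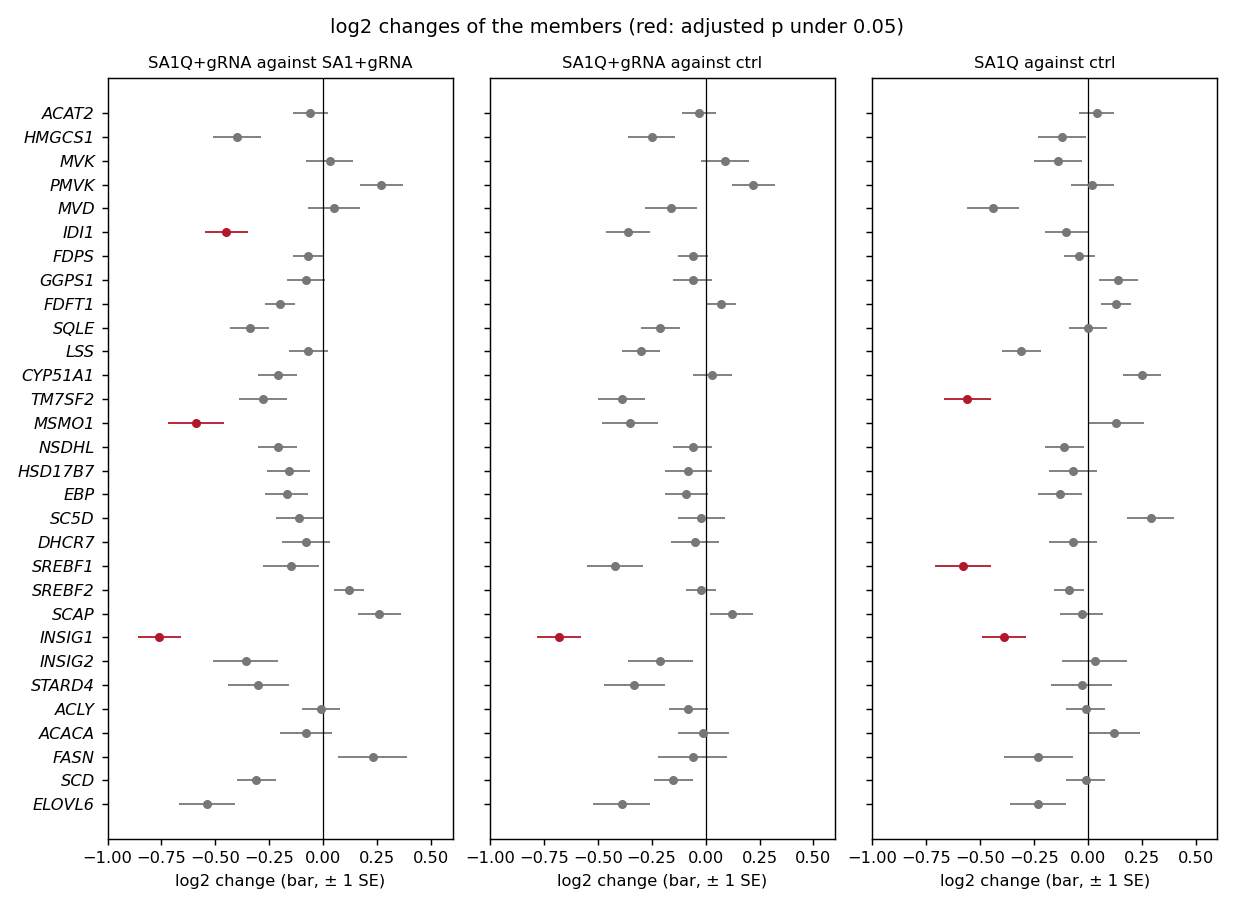
Log2 change of each member in 3 comparisons, with bars of 1 SE and red points where the adjusted p is under 0.05. INSIG1 is the member called in all 3, at -0.76 against SA1+gRNA, -0.68 and -0.39 against ctrl.

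The members called in this comparison have a low GC content (42.9% for INSIG1, 39.8% for IDI1 and 38.1% for MSMO1), as do STARD4 (34.2%) and ELOVL6 (42.9%), all at their lowest in SA1Q+gRNA replicate 1. Without that library, which leaves 1 SA1Q+gRNA library, INSIG1 had a log2 difference of -0.61, MSMO1 of -0.45 and IDI1 of -0.31. Without SA1Q+gRNA replicate 2, which leaves only the library that stood apart, INSIG1 was at -0.94, MSMO1 at -0.76 and IDI1 at -0.62. SCAP was at 0.39 there. With the correction for length and GC content, 11 members were called, all lower, against 4.36% of all genes, and INSIG1, MSMO1 and IDI1 were among them (log2 -0.69, -0.49 and -0.37). Without either library of SA1+gRNA, SA2+gRNA, SA2Q or SA2Q+gRNA, INSIG1 alone was called, against 0.101% to 0.535% of all genes. Without either of SA1Q, INSIG1 and MSMO1 were called, against 0.695% and 0.678%, and without either of ctrl 6 members were, against 1.94% and 1.93%. The summed level of the blood list was 122 to 132 CPM in SA1Q+gRNA, against 161 CPM in both SA1+gRNA libraries, with none of its genes called. RNA45SN5 had 12000 and 2710 CPM in SA1Q+gRNA, against 2730 and 2370 CPM in SA1+gRNA. The part of either in the result was not tested.

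**Figure D5:**
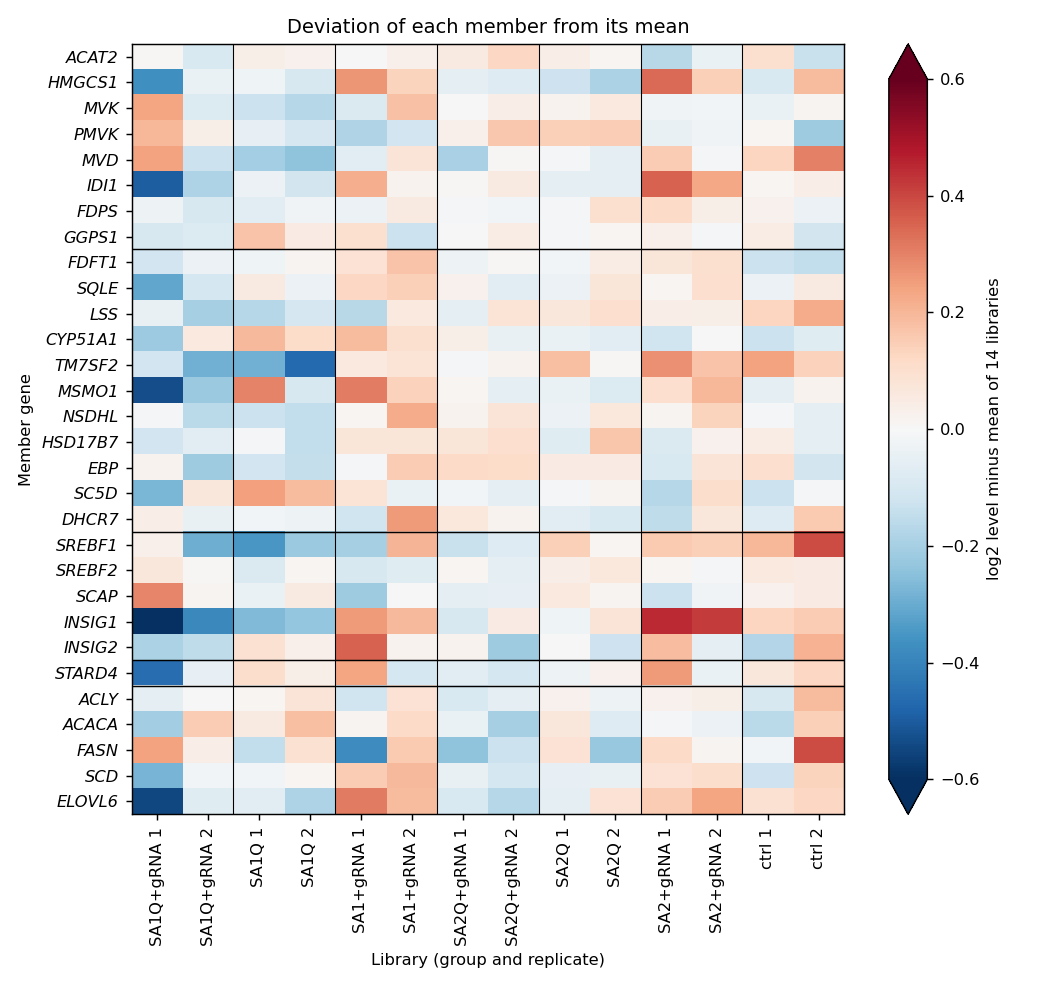
Log2 level of each member minus its mean over the 14 libraries, with members in rows by role and libraries in columns by group. The lowest cell is INSIG1 in SA1Q+gRNA replicate 1, and low values of IDI1, MSMO1, STARD4 and ELOVL6 stand in the same column.

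The guide itself was examined in the Q lines. In SA1Q+gRNA against SA1Q no member of 30 was called, and no gene at all (0%). MSMO1 had 22.2 and 27.5 CPM in SA1Q+gRNA, against 39.4 and 30 CPM in SA1Q (log2 -0.48, adjusted p = 0.39), and INSIG1 had a difference of -0.29 (adjusted p = 0.39). At an unadjusted p under 0.05 there were 9 of 30 members, against 12.3% of all genes, and DESeq2 called 0 members. Without SA1Q+gRNA replicate 2, which leaves the library that stood apart, 10 members were called, against 12.8% of all genes. Of these, MVK, the mevalonate kinase, and MVD were higher (log2 0.37 and 0.45), and the other 8 were lower. In SA2Q+gRNA against SA2Q, edgeR called 0 of 30 members and 0% of all genes, 0 members had an unadjusted p under 0.05, against 1.71% of all genes, and DESeq2 called 0. SREBF1 had a difference of -0.18 and ELOVL6 of -0.15. The guide's effect was not shown to differ between the lines, since the test of that difference called 0 members and 0% of genes, with 2 members at an unadjusted p under 0.05, against 5.64% of all genes, and DESeq2 at 0. The members with the smallest p in that test were MSMO1, at -0.52 (95% interval -0.90 to -0.14, adjusted p = 0.71), and IDI1, at -0.35 (95% interval -0.64 to -0.05, adjusted p = 0.71).

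In the lines with SNAP-ADAR2 forms no member was called against ctrl by edgeR or DESeq2. limma on log2 FPKM also called no member in any comparison in which edgeR called none. For SA2Q against ctrl, 0.0853% of all genes were called, 2 members (6.67%) had an unadjusted p under 0.05, against 8.82% of all genes, and PMVK and FDFT1 had differences of 0.24 and 0.15. For SA2Q+gRNA against ctrl, 0.067% of all genes were called, with 3 members (10%) at an unadjusted p under 0.05, the share among all genes. SREBF1 had 49.7 and 51.6 CPM in SA2Q+gRNA, against 62.4 and 71.4 CPM in ctrl (log2 -0.40, adjusted p = 0.32), and MVD had a difference of -0.31. For SA2+gRNA against ctrl, 0.104% of all genes were called, with 3 members (10%) at an unadjusted p under 0.05, against 10.1% of all genes. INSIG1 had 223 and 218 CPM in SA2+gRNA, against 179 and 182 CPM in ctrl (log2 0.29, adjusted p = 0.28), and FDFT1 had a difference of 0.22. Without both libraries that stood apart, 2 members were called in SA2Q and 4 in SA2Q+gRNA against ctrl, where 3.69% and 5.52% of all genes were called. For SA2Q+gRNA against SA2+gRNA, edgeR called no member and 0.0122% of all genes, with 5 members (16.7%) at an unadjusted p under 0.05, against 7.90% of all genes. INSIG1 had 153 and 169 CPM in SA2Q+gRNA, against 223 and 218 CPM in SA2+gRNA (log2 -0.45, 95% interval -0.66 to -0.25, adjusted p = 0.19, edgeR). The groups did not overlap, as for 24.1% of all genes in the lower direction. DESeq2 called INSIG1 in this comparison (adjusted p = 0.0075), and HMGCS1 had a difference of -0.31 that neither tool called.

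SA1+gRNA against ctrl gave no called member by edgeR or DESeq2, and 0.0426% of all genes were called. At an unadjusted p under 0.05 there were 4 members (13.3%), against 10.6% of all genes. FDFT1 had 253 and 269 CPM in SA1+gRNA, against 218 and 216 CPM in ctrl (log2 0.27, adjusted p = 0.21), and CYP51A1 had a difference of 0.24. Without both libraries that stood apart, 1 member was called there, against 2.48% of all genes. INSIG1 had a difference of 0.09 with a 95% interval of -0.11 to 0.29. These comparisons share the ctrl libraries with those above, so their values do not stand as separate readings.

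Between lines, SA1Q against SA2Q gave no called member by edgeR, against 0.146% of all genes, with 6 members (20%) at an unadjusted p under 0.05, against 13.5% of all genes. TM7SF2 had 11.9 and 10.5 CPM in SA1Q, against 16.4 and 14.6 CPM in SA2Q (log2 -0.47, adjusted p = 0.089), and DESeq2 called it (adjusted p = 0.015). INSIG1 had a difference of -0.28. In SA1Q+gRNA against SA2Q+gRNA, edgeR called no member and 0.116% of all genes, with 5 members (16.7%) at an unadjusted p under 0.05, against 11.9% of all genes. INSIG1 had 99.9 and 125 CPM in SA1Q+gRNA, against 153 and 169 CPM in SA2Q+gRNA (log2 -0.52, 95% interval -0.72 to -0.32, adjusted p = 0.051, edgeR). The groups did not overlap, as for 21.7% of all genes in the lower direction. DESeq2 called INSIG1 here (adjusted p = 0.00039). IDI1 had a difference of -0.36 there. In the blood list, 1 of 5 genes was lower in each of these comparisons, CD68 in SA1Q against SA2Q (log2 -0.81, adjusted p = 0.040) and LCP1 in SA1Q+gRNA against SA2Q+gRNA (log2 -0.49, adjusted p = 0.038). The list summed to 130 to 142 CPM in SA1Q, against 169 to 180 CPM in SA2Q, and to 122 to 132 CPM in SA1Q+gRNA, against 180 to 181 CPM in SA2Q+gRNA, and its part in the results was not tested. Without both libraries that stood apart, 3 members were called in SA1Q against SA2Q, where 6.19% of all genes were. SA1+gRNA against SA2+gRNA gave no called member by edgeR or DESeq2, against 0.0122% of all genes, with 2 members (6.67%) at an unadjusted p under 0.05, against 4.79% of all genes. CYP51A1 and INSIG1 had differences of 0.20 and -0.21 there.

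Genes of the pathway outside the 30 were read from 3 further lists. In the list of 13 other SREBP targets, 2 were lower in SA1Q against ctrl, 1 in SA1Q+gRNA against ctrl, 2 in SA1Q+gRNA against SA1+gRNA and 1 in SA1Q+gRNA against SA2Q+gRNA, and none was higher in any comparison. Of all genes, 1.78%, 0.609%, 0.505% and 0.0792% were called lower in these 4 comparisons. These 4 comparisons share libraries, among them both that stood apart, so they do not stand as separate readings. Calls of genes in the 3 further lists under the alternatives are not given here. FADS2, a desaturase of polyunsaturated fatty acids, was lower in each of the 4 comparisons. It had 93.1 and 105 CPM in SA1Q+gRNA, 110 and 112 in SA1Q, 134 and 142 in SA1+gRNA, 136 and 138 in SA2Q+gRNA, 144 and 152 in SA2Q, 154 and 146 in SA2+gRNA, and 156 and 161 CPM in ctrl. The 4 libraries of the SA1Q line were the lowest and the ctrl libraries the highest. Its log2 change was -0.51 in SA1Q against ctrl, -0.68 in SA1Q+gRNA against ctrl, -0.48 in SA1Q+gRNA against SA1+gRNA and -0.46 in SA1Q+gRNA against SA2Q+gRNA (adjusted p = 0.0048, 0.0010, 0.011 and 0.038, edgeR). SLC25A1, the mitochondrial citrate carrier, was lower in SA1Q against ctrl (log2 -0.48, adjusted p = 0.026), and TMEM97, a sterol-regulated membrane protein, in SA1Q+gRNA against SA1+gRNA (log2 -0.40, adjusted p = 0.039). In the list of 8 genes for SREBP processing and sterol-regulated degradation, ERLIN2 was higher in SA1Q against ctrl (log2 0.34, adjusted p = 0.046) and no other call was made. MBTPS1, a protease that cuts the SREBPs, ran from 119 to 144 CPM. In the list of 9 genes for LXR, the nuclear receptor that answers to oxysterols, and for sterol storage and efflux, no gene was called in any comparison by edgeR, with 3 of 9 at an unadjusted p under 0.05 in SA1Q against ctrl, against 21.2% of all genes. ABCA1, the sterol efflux pump, was at 0.107 to 0.314 CPM in 12 libraries and at 1.21 and 1.5 CPM in SA1Q+gRNA replicate 1 and ctrl replicate 1, the libraries that stood apart.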

How the data were processed

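Polyadenylated RNA was sequenced paired-end from libraries made with a kit that keeps strand, per the labels' protocols. The build hg19, the aligner STAR 2.4.2a and Trim Galore are named in the submitters' processing notes. How fragments were counted, and whether by strand, is not given in the sources used here, so antisense and overlapping genes are uncertain. Each of the 14 deposited files gave, per transcript, a whole-number count, an FPM value scaled to the library total and an FPKM value scaled also to transcript size, per the file headers. Counts were tested, FPM chose the transcript of each gene, and the authors' FPKM served for levels between genes.

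Of 45595 accessions, 44381 were named with a RefSeq gene table (GRCh38.p14, names only) and 578 with a GENCODE table. Entries without a name held 0.8% of counts and were left out of library sizes and tests, as were transcripts under 200 nucleotides. edgeR 4.0.16 in R 4.3.3 (TMM, filterByExpr with a minimum count of 10, robust quasi-likelihood fit, two-sided) was fitted over all 14 libraries with 1 coefficient per group, leaving 7 residual degrees of freedom. Benjamini-Hochberg adjustment ran over 16421 genes within each of 15 comparisons, and an adjusted p comes from edgeR's quasi-likelihood test except where DESeq2 1.42.0 or limma 3.58.1 is named. Called means an adjusted p under 0.05. The fit was checked on simulated counts.

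Members called in a comparison were named, or the 2 with the smallest p where none was. Values by library were given for members that differed over the 7 groups and for the most abundant of each role. MVD, LSS, SQLE, HMGCS1, STARD4, ELOVL6 and the members listed beside them were chosen after their values were seen. So were the values of SREBF1 in every group. The members and lists were chosen with earlier results of these data known. In 25 alternatives the scaling, tool, filter, transcript, length and GC correction, replicate block or libraries were changed. Library-by-library and transcript differences were chosen after seeing the data. Replicate numbers were not taken to pair the libraries.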

Additional observations from a re-analysis of the deposited data

How the results depend on the processing

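INSIG1 stayed lower and called in all 25 alternatives in SA1Q+gRNA against ctrl (log2 -0.86 to -0.53) and against SA1+gRNA (-0.94 to -0.61). TM7SF2 and SREBF1 in SA1Q against ctrl were called in 20 each, INSIG1 there in 10, MSMO1 and IDI1 in SA1Q+gRNA against SA1+gRNA in 11 and 9. None of these results changed sign, and other scalings moved the median gene by at most 0.031 on the log2 scale. The cause of these changes was not tested. Some of the 25 alternatives left 1 library in a group, whose spread was then taken from the other groups. Counts of members called that moved by over 1.5 times are given with the share of all genes called in the same fit in parentheses. With DESeq2 they were 5 (6.48%) in SA1Q against ctrl, 3 (2.91%) in SA1Q+gRNA against ctrl, 6 (3.57%) in SA1Q+gRNA against SA1+gRNA, 1 each in SA2Q+gRNA against SA2+gRNA (0.347%), SA1Q against SA2Q (1.88%) and SA1Q+gRNA against SA2Q+gRNA (1.08%), and 7 (8.23%) over the 7 groups. With the length and GC correction they were 8 (6.10%) in SA1Q+gRNA against ctrl, 11 (4.36%) in SA1Q+gRNA against SA1+gRNA, 2 (0.238%) in SA2Q+gRNA against SA2+gRNA, 1 each in SA1Q against SA2Q (1.40%) and SA1Q+gRNA against SA2Q+gRNA (1.66%), and 9 (8.70%) over the 7 groups. limma with a pseudocount of 0.1 (1.18%) or 1 (0.828%) and summed transcripts (0.642%) each gave 1 in SA1Q+gRNA against SA1+gRNA, and upper quartile scaling (0.122%) or no filter (0.220%) 1 in SA1Q+gRNA against SA2Q+gRNA. Smaller moves, from 3 in each case, were 4 with the length and GC correction or no filter and 2 with limma or summed transcripts in SA1Q against ctrl, 4 with no filter in SA1Q+gRNA against SA1+gRNA, and over the 7 groups 4 with no filter and 2 with limma or summed transcripts. Without both libraries that stood apart they were 5 (7.84%) in SA1Q, 2 (3.69%) in SA2Q, 3 (1.70%) in SA1Q+gRNA, 4 (5.52%) in SA2Q+gRNA and 1 (2.48%) in SA1+gRNA against ctrl, 1 (1.45%) in SA1Q+gRNA against SA1+gRNA, 2 (0.824%) in SA2Q+gRNA against SA2+gRNA, 3 (6.19%) in SA1Q against SA2Q, 1 (1.14%) in SA1Q+gRNA against SA2Q+gRNA and 11 (12.2%) over the 7 groups.

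Leaving out 1 library gave 0 to 5 (0.226% to 7.19%) in SA1Q against ctrl, 1 to 3 (0.612% to 2.87%) in SA1Q+gRNA against ctrl, 0 to 10 (0% to 12.8%) in SA1Q+gRNA against SA1Q, 1 to 10 (0.101% to 12.5%) in SA1Q+gRNA against SA1+gRNA, 0 to 1 in SA2Q+gRNA against SA2+gRNA (0.00594% to 0.0952%) and in SA1Q against SA2Q (0.0178% to 1.08%), 0 to 3 (0.0119% to 4.11%) in SA1Q+gRNA against SA2Q+gRNA, 1 to 7 (0.523% to 6.87%) over the 7 groups and 0 in the rest; a lone library was taken to vary like the other groups. Same-numbered libraries deviated together with a correlation over 0.1 in 2 of 21 pairs of groups (-0.14 to 0.44), so the samples were taken to share only a number. The 0.44 was that of ctrl with SA1Q+gRNA, whose replicates 1 are the libraries that stood apart. The replicate block gave 1 member (0.560%) in SA1Q+gRNA against SA1+gRNA, where MSMO1 had an adjusted p of 0.064 and IDI1 of 0.069, and 1 (0.980%) over the 7 groups. The block with the length and GC correction gave 6 (5.14%) in SA1Q+gRNA against ctrl, 10 (3.72%) in SA1Q+gRNA against SA1+gRNA, 1 each in SA2Q+gRNA against SA2+gRNA (0.195%), SA1Q against SA2Q (0.853%) and SA1Q+gRNA against SA2Q+gRNA (1.22%), and 8 (7.00%) over the 7 groups. With 2 libraries a group and a common coefficient of variation of 8.7%, small differences were not detectable.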
